A study of Penicillium oxalicum with 12 samples.

Results

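A set of 71 genes stood at least 4-fold higher in Δ*Podot1* than in WT of *Penicillium oxalicum* when the mycelia grew in glucose medium. They were chosen from the deposited FPKM values (mapped fragments scaled to gene length and library size) of the 9909 genes found in any library. A gene was taken when the lowest of the 3 Δ*Podot1* glucose libraries held at least 5 FPKM and that library plus 1 FPKM was at least 4 times the highest of the 3 WT glucose libraries plus 1 FPKM. A further limit was that the mean of the WT cellulose libraries plus 1 FPKM lay less than 8-fold above or below the mean of the WT glucose libraries plus 1 FPKM. The higher level of these genes in Δ*Podot1* in glucose is therefore how they were found and is described here without a test. The measurement that the choice did not use is the level in the 3 cellulose libraries labelled Δ*Podot1*.

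The series held 12 RNA libraries in 4 groups of 3 biological replicates: Δ*Podot1* in glucose, WT in glucose, Δ*Podot1* in cellulose and WT in cellulose. WT was strain 114-2, and Δ*Podot1* was made from it by replacing the *Podot1* coding region with a hygromycin resistance gene. Mycelia of both strains were precultured in 2% glucose and then moved for 24 h at 30°C to modified Mendal's medium that held either 2% glucose or wheat bran (1%) together with microcrystalline cellulose (1%). The sources do not say how many transformants the Δ*Podot1* libraries came from.

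*Podot1* (PDE_07484) was checked first. It had 0, 0.1 and 0.19 FPKM in the Δ*Podot1* glucose libraries, against 31.67, 25.83 and 28.99 FPKM in the WT glucose libraries. In cellulose it had 33.37, 58.38 and 0 FPKM in the libraries labelled Δ*Podot1* replicates 1, 2 and 3, against 36.39, 28.82 and 28.17 FPKM in WT. Replicates 1 and 2 thus held 341 and 613 *Podot1* counts and go against their label, so the 3 libraries are given one by one below. Replicate 2 also stood apart from its group: its correlation across genes on the log2(FPKM + 1) scale averaged 0.90 with the Δ*Podot1* glucose libraries, 0.86 with WT glucose, 0.65 with the other cellulose libraries labelled Δ*Podot1* and 0.57 with WT cellulose. Total counts per library were 4607764 to 7081689. In bulk mycelia, fewer cells of a kind and less RNA per cell cannot be told apart.

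Dot1 is the enzyme that methylates lysine 79 of histone H3. The mark is found over the bodies of transcribed genes, and in *Saccharomyces cerevisiae* Dot1 is also needed for the silencing of genes near telomeres. Filamentous fungi often keep genes of a pathway side by side on a chromosome, many genes for the use of amino acids are held low while ammonium and glucose are at hand, and siderophore uptake is held low while iron is plentiful. Locus tags of *P. oxalicum* (PDE_ numbers) are taken here as the order of the genes, and their coordinates were not used here.

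In glucose the genes covered a wide range of levels. Their mean in Δ*Podot1* ran between 7.03 and 1293 FPKM with a median of 79.3 FPKM, whereas the median of their means in WT was 7.13 FPKM. Together they took 2.14%, 1.88% and 1.68% of the summed FPKM of the Δ*Podot1* glucose libraries, against 0.193%, 0.149% and 0.177% in the WT glucose libraries. In Δ*Podot1*, 28 of the 71 genes averaged above 100 FPKM and 9 above 500 FPKM. The ratio of the lowest Δ*Podot1* library to the highest WT library, each plus 1 FPKM, had a median of 5.63 and reached 32.8; it was at least 8 for 19 genes and at least 16 for 5 genes. The Δ*Podot1* replicates lay close for most genes, since the highest was a median of 1.49 times the lowest, but for 13 genes this spread exceeded 2-fold. All 71 genes passed the filter on low counts, which their level in Δ*Podot1* glucose libraries alone could meet. In the edgeR quasi-likelihood fit, 62 of them were called higher in glucose, where 4.83% of the 9088 genes tested were called higher (Benjamini-Hochberg adjusted p under 0.05 and at least 2-fold); the rule used this contrast, so nothing is read from the count.

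**Figure D1:**
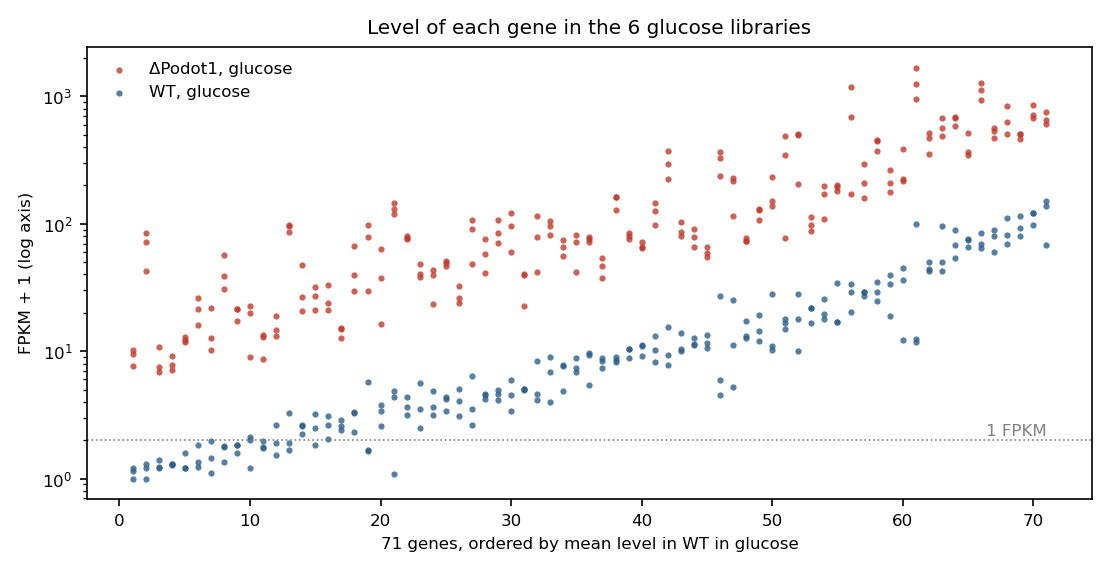
FPKM plus 1 (log axis) of each of the 71 genes in the 3 Δ*Podot1* glucose libraries (red) and the 3 WT glucose libraries (blue), 1 point per library, with genes ordered by their WT mean. Red points lie above blue points for every gene, as the choice of genes requires, and the dotted line at 1 FPKM shows that 10 genes lay below it in all 3 WT libraries.

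The genes differed in their state in WT. Silent genes, with every WT glucose library under 1 FPKM, numbered 10 (14.1%); 27 were weak, meeting neither limit, and 34 (47.9%) were expressed at 5 FPKM or more in every WT glucose library. Over all genes listed, 10.3% were silent and 70.4% expressed by the same limits. The choice shapes these shares, because a gene well expressed in WT had to reach a high level in Δ*Podot1* to be taken. Their levels in Δ*Podot1* followed the same order, with a median of 12.6 FPKM for silent, 57.1 FPKM for weak and 247 FPKM for expressed genes.

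Of the silent genes, PDE_06415 had the largest ratio of all 71. It held 84.11, 71.58 and 41.62 FPKM in the Δ*Podot1* glucose libraries, against 0, 0.3 and 0.22 FPKM in WT, which is 2531 counts in the 3 Δ*Podot1* libraries and 7 in the 3 WT libraries. PDE_00932, which the annotation describes as an oxidoreductase with tetrapyrrole binding, as in heme enzymes, followed with 55.73, 37.89 and 29.68 FPKM in Δ*Podot1*, against 0.34, 0.79 and 0.77 FPKM in WT. In glucose both genes were therefore near the detection limit in WT and plainly transcribed in Δ*Podot1*. In cellulose, PDE_06415 held 7.61, 34.39 and 1.99 FPKM in the libraries labelled Δ*Podot1*, against 2.9, 1.53 and 15.47 FPKM in WT. PDE_00932 held 3.36, 3.84 and 0.93 FPKM there, against 1.06, 0.2 and 1.99 FPKM in WT. Neither gene passed the test in cellulose (edgeR adjusted p = 0.42 and 0.17). In glucose the other silent genes stayed lower. For example, PDE_08484 held 11.9, 10.77 and 11.3 FPKM in Δ*Podot1*, against 0.59, 0.21 and 0.2 FPKM in WT. Of the 10, 5 were under 1 FPKM in all 6 WT libraries of both media: PDE_00022, PDE_00103, PDE_00355, PDE_02729 and PDE_08484. Only 3 of the 10 silent genes were among the genes that the study listed as changed, against 24 of the 27 weak and 32 of the 34 expressed genes. The annotation covers only genes that the study listed as changed.

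Among weak genes without a name, PDE_04225 and PDE_05119 had the largest ratios of the lowest Δ*Podot1* to the highest WT library, at 26.2 and 17.3. PDE_04225 had 94.24, 85 and 97.32 FPKM in Δ*Podot1* in glucose, against 2.28, 0.69 and 0.89 FPKM in WT. PDE_05119, annotated only with transferase activity, had 78.71, 74.75 and 75.95 FPKM in Δ*Podot1*, against 2.65, 2.14 and 3.37 FPKM in WT. Both kept a narrow range within Δ*Podot1*.

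Transporters were a further group, in which this ratio was 24.8 for PDE_06899 and 5.63 to 8.82 for the other 3 genes described here. PDE_06899, a proton-dependent oligopeptide transporter that takes up short peptides, had 145.32, 129.75 and 118.81 FPKM in Δ*Podot1* in glucose, against 0.09, 3.4 and 3.84 FPKM in WT. PDE_05978, a second peptide transporter of the same family, had 126.77, 129.16 and 106.66 FPKM in Δ*Podot1*, against 13.46, 10.93 and 18.12 FPKM in WT. WT thus expressed PDE_05978 in every glucose library and held PDE_06899 below 4 FPKM. PDE_00592 encodes a siderophore-iron transporter, which brings iron bound to secreted chelators into the cell. Its level was 28.55, 38.64 and 66.04 FPKM in Δ*Podot1*, against 1.31, 2.28 and 2.35 FPKM in WT. PDE_06674, with a weaker match to the same transporter family, had 20.04, 22.92 and 32.36 FPKM in Δ*Podot1*, against 1.04, 2.12 and 1.63 FPKM in WT. The libraries of the 2 strains were far apart for each of these genes, as the choice requires.

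Ion transporters are described next. They were picked after their values were seen, and no list of all such genes was counted. PDE_05150, a calcium-transporting ATPase, had 48, 49.87 and 45.43 FPKM in Δ*Podot1*, against 2.42, 3.24 and 3.34 FPKM in WT, with very little spread within either strain. PDE_01332, a calcium/proton antiporter, had 169.82, 196.35 and 107.33 FPKM in Δ*Podot1*, against 17.02, 24.88 and 18.53 FPKM in WT. PDE_04634, a sodium-exporting ATPase, had 74.62, 79.13 and 84.29 FPKM in Δ*Podot1*, against 9.46, 7.86 and 9.41 FPKM in WT. None of these 3 ion transporters was silent in WT. PDE_08385, an annexin, a protein family that binds phospholipids in a calcium-dependent way, had 676.01, 568.93 and 489.77 FPKM in Δ*Podot1*, against 95.92, 41.4 and 49.47 FPKM in WT.

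Enzymes made up most of the remaining annotated genes. PDE_09593, the pdxS subunit of the enzyme that makes pyridoxal 5'-phosphate (vitamin B6), was among the most abundant at 608.42, 651.02 and 759.15 FPKM in Δ*Podot1*, against 67.56, 136.62 and 150.15 FPKM in WT. PDE_05548, an aldehyde dehydrogenase, had 536.72, 468.06 and 563.38 FPKM in Δ*Podot1*, against 89.08, 58.59 and 79.76 FPKM in WT. PDE_05020, a glutathione S-transferase, which couples glutathione to reactive compounds, had 446.25, 454.89 and 370.69 FPKM in Δ*Podot1*, against 33.98, 23.94 and 28.06 FPKM in WT. All 3 enzymes were expressed in WT, and their Δ*Podot1* libraries ran between 370.69 and 759.15 FPKM. PDE_09532, a putative chitinase of the kind that remodels the fungal wall, had 160.05, 162.04 and 127.31 FPKM in Δ*Podot1*, against 7.49, 7.28 and 7.98 FPKM in WT. PDE_07080, a putative arabinofuranosidase that trims side chains of plant hemicellulose, had 105.53, 89.88 and 47.66 FPKM in Δ*Podot1*, against 5.36, 2.49 and 1.61 FPKM in WT. PDE_06706, a linoleate 8R-lipoxygenase of the fungal oxylipin pathway, had 223.05, 215.81 and 383.11 FPKM in Δ*Podot1*, against 44.16, 11.31 and 35.46 FPKM in WT. The 71 genes also held a putative α-1,6-mannosyltransferase (PDE_00070) at 38.84, 42.73 and 22.33 FPKM in Δ*Podot1*, against 2.15, 3.9 and 2.63 FPKM in WT.

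The most abundant genes mostly had no name. PDE_01195 led with 1683.78, 950 and 1246.7 FPKM in Δ*Podot1*, against 98.45, 10.88 and 11.57 FPKM in WT. WT replicate 1 was the high one there, and in 12 of the 71 genes that library held more than 2 times each of the other WT glucose libraries, which neither of the others did for any gene. PDE_05929 had 1271.23, 1117.08 and 936.57 FPKM in Δ*Podot1*, against 64.08, 83.41 and 68.79 FPKM in WT. PDE_04218 had the widest spread, with 1182.69, 693.67 and 168.79 FPKM in Δ*Podot1*, against 19.25, 28.05 and 32.62 FPKM in WT. PDE_01635 had 859.39, 709.86 and 675.8 FPKM in Δ*Podot1*, against 120.54, 96.83 and 120.13 FPKM in WT. Δ*Podot1* replicate 3 was the lowest of its group for 40 of the 71 genes. In all, 20 of the 71 genes had a usable name and 51 had none. Their median transcript length was 1596 bases, against 1348 bases over all genes listed.

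Some genes lay close to the ratio limit on either side. Just inside were PDE_01213 (ratio 4.02), PDE_08814 (4.03) and PDE_09593 (4.03), and just outside PDE_09225 (3.99), PDE_06888 (3.98) and PDE_03743 (3.97). The last had 223.35, 154.51 and 56.54 FPKM in Δ*Podot1*, against 13.5, 10.34 and 12.57 FPKM in WT, and missed the limit through its lowest Δ*Podot1* library. The set depends on single libraries at this limit: without Δ*Podot1* glucose replicate 3 the rule took 159 genes, and without WT glucose replicate 1 it took 125, each including all 71.

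Some of the genes were neighbours. In 6 pairs the locus tags follow each other, so 12 of the 71 genes had another one beside them: PDE_00022 and PDE_00023, PDE_01212 and PDE_01213, PDE_05150 and PDE_05151, PDE_08813 and PDE_08814, PDE_08906 and PDE_08907, and PDE_09270 and PDE_09271. No run of 3 was present. PDE_01193 and PDE_01195 lay 2 tags apart, and PDE_01188, annotated like the spore wall maturation protein DIT1, lay 5 tags before PDE_01193. PDE_01188 had 367.19, 237.72 and 328.25 FPKM in Δ*Podot1*, against 26.1, 3.49 and 4.89 FPKM in WT. PDE_01193 had 232.18, 137.39 and 151.32 FPKM in Δ*Podot1*, against 26.85, 9.15 and 9.97 FPKM in WT. PDE_01194, between PDE_01193 and PDE_01195, was not in the set: it held 7164.3, 5296.86 and 4665.05 FPKM in Δ*Podot1*, against 5011.75, 1431.35 and 1704.05 FPKM in WT, and so was abundant in both strains.

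The pair with the clearest joint role was PDE_08906 and PDE_08907. Homogentisate 1,2-dioxygenase (PDE_08906) opens the ring of homogentisate during the breakdown of phenylalanine and tyrosine, and fumarylacetoacetase (PDE_08907) carries out the last step to fumarate and acetoacetate. PDE_08906 had 227.07, 215.62 and 114.52 FPKM in Δ*Podot1* in glucose, against 24.14, 4.27 and 10.18 FPKM in WT. PDE_08907 had 505.11, 496.03 and 205.46 FPKM in Δ*Podot1*, against 27.18, 9.06 and 16.81 FPKM in WT. For both, Δ*Podot1* replicate 3 was the lowest of its group and still several-fold above the highest WT library, as the choice requires.

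The genes on both sides of this pair met the same limits on level and ratio and were left out only because WT expressed them more than 8-fold higher in cellulose than in glucose. PDE_08904, 4-hydroxyphenylpyruvate dioxygenase, which makes homogentisate, had 31.29, 37.46 and 77.12 FPKM in Δ*Podot1* in glucose, against 0.74, 0.52 and 0.61 FPKM in WT. PDE_08908, maleylacetoacetate isomerase, the step between the 2 enzymes of the pair, had 33.54, 29.05 and 26.05 FPKM in Δ*Podot1*, against 0.62, 0 and 0 FPKM in WT. The unnamed PDE_08905 had 34.97, 41.5 and 86.67 FPKM in Δ*Podot1*, against 0.8, 1.51 and 0.73 FPKM in WT. The stretch PDE_08904 to PDE_08908 was thus a run of 5 tags that all met the level and ratio limits, the longest in the data. It ended on both sides: PDE_08903 had 34.13, 23.58 and 21.62 FPKM in Δ*Podot1*, against 16.8, 12.13 and 14.94 FPKM in WT, and PDE_08909 had 7.43, 11.94 and 13.71 FPKM in Δ*Podot1*, against 3.9, 4.31 and 4.39 FPKM in WT. A second 4-hydroxyphenylpyruvate dioxygenase gene elsewhere, PDE_09761, had 445.29, 464.82 and 552.79 FPKM in Δ*Podot1* and 1436.78, 469.15 and 914.41 FPKM in WT, and did not pass the test in glucose (edgeR adjusted p = 0.38).

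**Figure D2:**
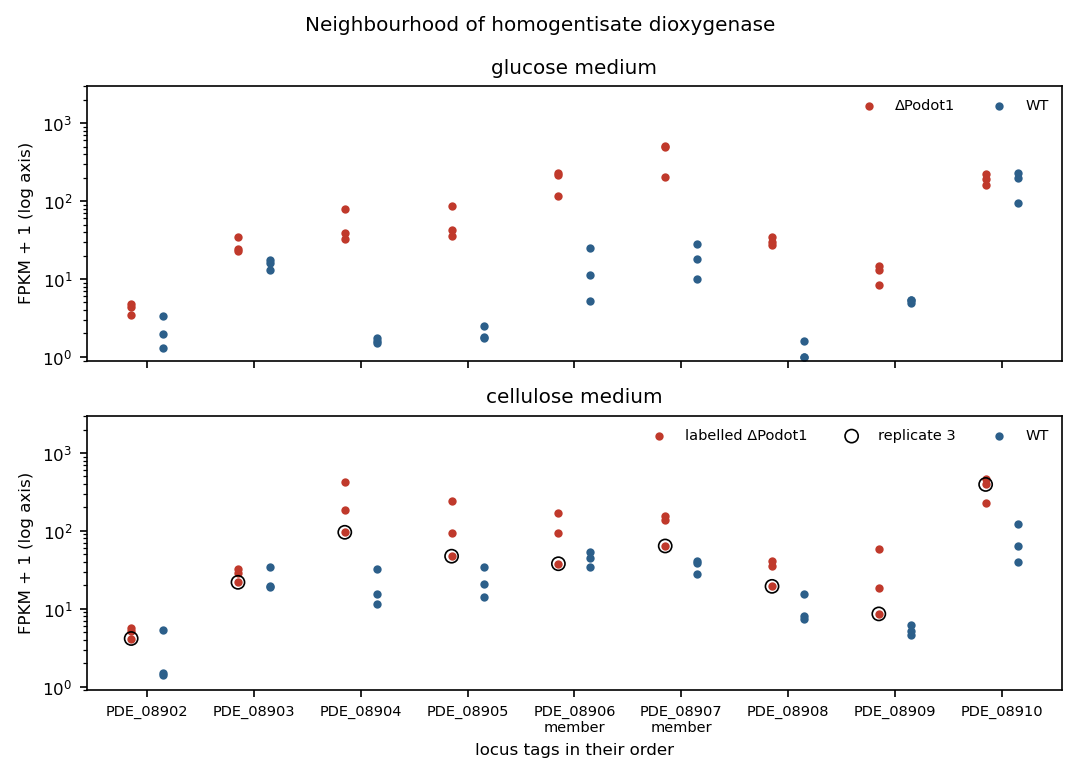
FPKM plus 1 (log axis) of 9 genes in the order of their locus tags around the homogentisate dioxygenase gene PDE_08906, in glucose (top) and cellulose (bottom), with 1 point per library; red is Δ*Podot1* or labelled so, blue is WT, and the circle marks cellulose replicate 3, the one without *Podot1* reads. In glucose the strains lie far apart from PDE_08904 to PDE_08908 and close together at PDE_08903 and PDE_08910. In cellulose the WT points of PDE_08904, PDE_08905 and PDE_08908 are higher than in glucose. From PDE_08904 to PDE_08908 the red and blue points lie closer there, and at PDE_08909 and PDE_08910 further apart.

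PDE_08813 and PDE_08814 belong to proline breakdown, in which 1-pyrroline-5-carboxylate dehydrogenase (PDE_08814) yields glutamate. PDE_08813, whose annotation names proline metabolism, had 472.92, 512.76 and 352.44 FPKM in Δ*Podot1* in glucose, against 41.38, 49.35 and 43.08 FPKM in WT. PDE_08814 had 502.08, 508.85 and 459.63 FPKM in Δ*Podot1*, against 113.37, 78.9 and 91.03 FPKM in WT. The replicates of each strain agreed closely for both genes. PDE_01212, annotated as brevianamide F synthase, a nonribosomal peptide synthetase, had 175.36, 208.68 and 261.69 FPKM in Δ*Podot1*, against 32.54, 17.96 and 38.69 FPKM in WT. Its neighbour PDE_01213 had 97.22, 87.37 and 111.72 FPKM in Δ*Podot1*, against 20.68, 15.71 and 20.99 FPKM in WT. PDE_05151, beside the calcium ATPase PDE_05150, had 143.69, 125.66 and 96.68 FPKM in Δ*Podot1*, against 9.23, 12.08 and 7.21 FPKM in WT. PDE_09271 had 682.84, 584.12 and 680.22 FPKM in Δ*Podot1*, against 87.84, 52.56 and 67.4 FPKM in WT, and its neighbour PDE_09270 was far less abundant at 62.93, 36.25 and 15.32 FPKM in Δ*Podot1*, against 2.77, 2.4 and 1.6 FPKM in WT. Whether reads of overlapping neighbours were separated by strand is not given in the sources used here.

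Position was not used to choose the genes, so the genes beside them could be examined. Of 110 genes at the next locus tag that were tested and not themselves in the set, 23 (20.9%) were called higher in Δ*Podot1* in glucose, against 4.83% of all genes tested, and 4 were called lower, against 4.01%. Their median log2 fold change was 0.48, against -0.03 over all genes. Among those called higher were PDE_08905 and PDE_08908, which had met the level and ratio limits and were left out only by the carbon limit. At 2 tags the share called higher was 10 of 120 (8.33%), and at 3 tags 13 of 134 (9.7%), so it was largest at the next tag. PDE_04219, a glutamine synthetase beside PDE_04218, had 860.97, 506.03 and 120.35 FPKM in Δ*Podot1*, against 27.8, 24.39 and 32.89 FPKM in WT, and both genes were lowest in Δ*Podot1* replicate 3. PDE_02167, an acyl-CoA oxidase of fatty acid breakdown beside PDE_02168, had 95.98, 120.9 and 54.2 FPKM in Δ*Podot1*, against 13.36, 13.86 and 18.01 FPKM in WT. PDE_01187, a multidrug transporter beside PDE_01188, had 2265.19, 1305.41 and 1121.29 FPKM in Δ*Podot1*, against 405.51, 283.52 and 319.34 FPKM in WT. PDE_06899 and PDE_04225 had genes called higher on both sides, but most of these were low. PDE_06898 held 7.88, 4.22 and 2.24 FPKM in Δ*Podot1*, against 1.03, 0.29 and 0 FPKM in WT. PDE_06900 held 6.99, 7.54 and 5.53 FPKM in Δ*Podot1*, and PDE_04224 held 5.38, 3.92 and 1.94 FPKM. Only PDE_04226 was abundant, at 109.07, 96.09 and 80.96 FPKM in Δ*Podot1*. The limit on reads of overlapping neighbours given above applies here too. In 4 cases the neighbour went the other way, the most abundant being PDE_00509 beside PDE_00510, with 457.81, 521.35 and 615.64 FPKM in Δ*Podot1*, against 5410.94, 2241.3 and 3582.6 FPKM in WT.

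**Figure D3:**
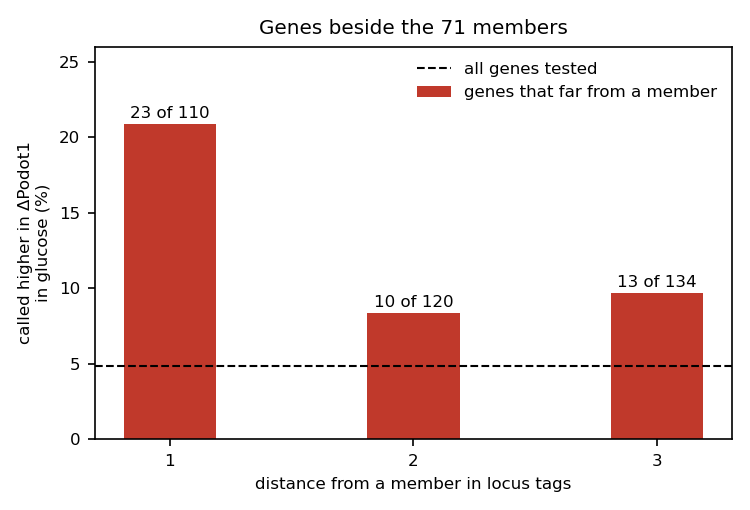
Percent of genes called higher in Δ*Podot1* than in WT in glucose (edgeR, adjusted p under 0.05 and at least 2-fold) among genes 1, 2 or 3 locus tags from one of the 71 genes and not in the set; a gene can stand at more than 1 distance from different members. The bars stand at 20.9%, 8.33% and 9.7%, and the dashed line at 4.83% is the share over all 9088 genes tested.

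Counted by pathway, the genes were parts of lists that had been drawn from the annotation of genes changed in this study, so the counts are no independent evidence of a direction. Of 7 tyrosine breakdown genes, 6 were called higher in Δ*Podot1* in glucose by edgeR, DESeq2 and limma alike and none was lower even at an unadjusted p under 0.05; 2 of the 7 were in the set. Over all genes tested the shares were 4.83% higher and 4.01% lower. Of 10 genes of proline, glutamate and glycine metabolism, 5 were called higher and 1 lower in glucose. Of 15 amino acid and peptide transporters, 6 were called higher and 2 lower. Of 12 secondary metabolism genes, 5 were called higher and 1 lower. None of the 4 siderophore transporters was called by edgeR or limma, 3 were higher at an unadjusted p under 0.05, and DESeq2 called 2 of them higher. The remaining one, PDE_06096, was the most abundant in glucose and lay the other way. It had 811.69, 1130.33 and 1485.89 FPKM in Δ*Podot1*, against 2714.59, 3956.77 and 3645.33 FPKM in WT (edgeR adjusted p = 0.47). Among the 9 genes of the set that edgeR did not call in glucose were PDE_00592, PDE_06674 and PDE_06899, although their glucose libraries do not overlap. The pH regulator gene *pacC* (PDE_05163) was not in the set, with 105.48, 138.16 and 125.33 FPKM in Δ*Podot1*, against 34.34, 24 and 28.84 FPKM in WT.

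In WT the genes went both ways between the carbon sources, within the 8-fold limit that the choice had set. The ratio of the WT cellulose mean to the WT glucose mean, each plus 1 FPKM, had a median of 1.15 and ran between 0.172 and 6.51. For 39 of the 71 genes the WT media differed by no more than 2-fold, 22 were more than 2-fold higher in cellulose and 10 more than 2-fold lower. PDE_01188 and PDE_01195 were among the lower ones, at 1.44, 1.04 and 1.96 FPKM and 3.74, 5.34 and 9.23 FPKM in WT in cellulose.

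The strain comparison in cellulose asked whether the same genes were also higher there. Across the 3 libraries labelled Δ*Podot1*, 42 of the 71 genes (59.2%) were called higher than in WT by edgeR, where 14.3% of all 9088 genes tested were called higher. None of the 71 was called lower, where 10.8% of all genes were called lower; none was lower at an unadjusted p under 0.05 either, and DESeq2 and limma called none lower. The median log2 fold change was 1.93, against 0.14 over all genes, and it was above 0 for 70 of the 71 genes. In 36 genes (50.7%) every library labelled Δ*Podot1* lay above every WT library, against 20.7% of all genes tested, and in 0 every one lay below, against 17.3% of all genes tested. For each such gene the two-sided exact permutation test on FPKM gives p = 0.1, the smallest that 3 against 3 libraries allow. The WT cellulose libraries entered the choice through the limit on their mean, and they are also the reference of this comparison. That limit left out 20 genes, of which 17 were high and 3 low in WT in cellulose relative to glucose. Genes with high WT cellulose levels, which had the most room to be lower, were thus mostly the ones removed. The shares over all genes, here and below, carry no such limit. The choice therefore partly shapes the counts of higher and lower genes, and how far was not tested.

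The count depended on which libraries were used. Without replicate 2, 32 of the 71 genes (45.1%) were called higher, where 13.9% of all genes were, and 1 was called lower. With replicate 3 alone, the library without *Podot1* reads, 27 (38%) were called higher, where 11.7% of all genes were, and 3 were called lower, where 11.6% of all genes were; this fit assumes that the lone library varies like the other groups. The median log2 fold change was then 0.91, against -0.07 over all genes. Without WT cellulose replicate 1, 2 or 3, the 3 libraries labelled Δ*Podot1* gave 24, 19 and 26 calls. Fitted on their own, the 6 cellulose libraries gave 8 calls among the 65 members that passed that filter. The share over all genes was not counted for these last fits. Their lower counts therefore do not tell a loss among the 71 genes from a loss of calls in general.

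**Figure D4:**
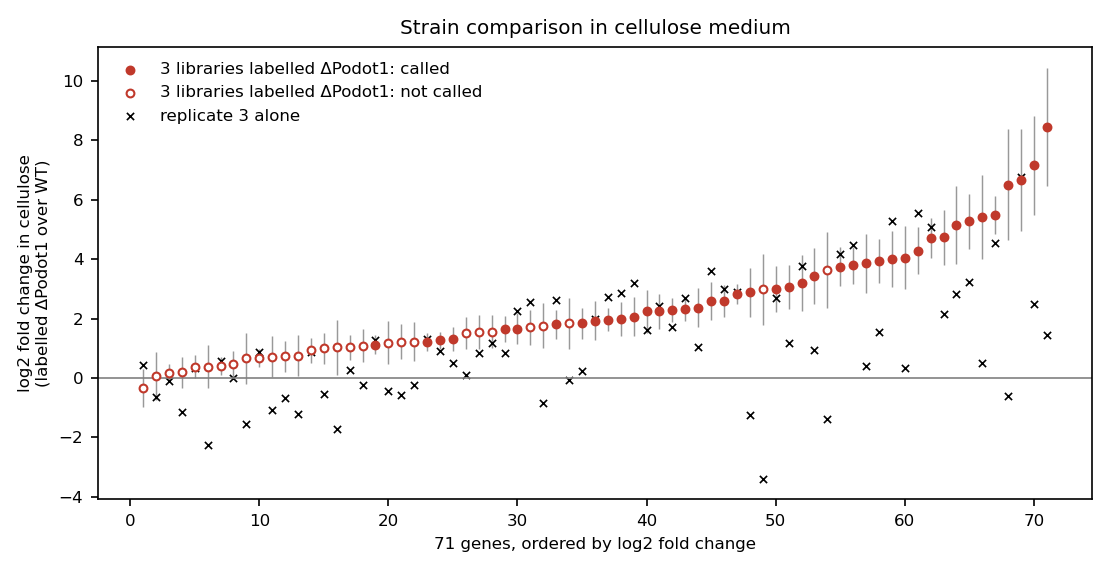
Log2 fold change of each of the 71 genes in cellulose, the Δ*Podot1*-labelled libraries over WT, ordered by size. Circles use all 3 libraries labelled Δ*Podot1* (filled where called, bars ± 1 SE derived from the F statistic) and crosses use replicate 3 alone; 70 circles lie above 0, and 51 crosses do.

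Taken library by library, the genes behaved differently. A gene was counted as raised in a library when it held at least 5 FPKM there and, with 1 FPKM added to both, at least 4 times the highest WT cellulose library. Replicate 1 (33.4 FPKM of *Podot1*) had 10 of the 71 genes raised, or 14.1%, against 2.5% of all genes listed. Replicate 2 (58.4 FPKM of *Podot1*) had 27, or 38%, against 7.09% of all genes. Replicate 3 (no *Podot1* reads) had 15, or 21.1%, against 2.18% of all genes. In replicate 2 the genes came closest to their level in Δ*Podot1* in glucose, with a median of 0.585 of the Δ*Podot1* glucose mean, against 0.262 in replicate 1 and 0.201 in replicate 3. Replicate 3 was above every WT cellulose library for 44 of the 71 genes, where 36.2% of all genes listed were, and below every one for 11, where 36.4% of all genes were. Replicate 2 was above for 65, where 45.5% of all genes were, and below for 1, where 34.9% of all genes were. Over the 71 genes, replicates 1 and 3 correlated at 0.90 on the log2(FPKM + 1) scale and replicates 2 and 3 at 0.43, a description over genes that share these libraries. Replicate 2 stood apart over all genes too. With a mean of at least 1 FPKM, replicates 1, 2 and 3 correlated on average at 0.78, 0.65 and 0.77 with the others of their group. The 0.90 is therefore not read as particular to the 71 genes.

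**Figure D5:**
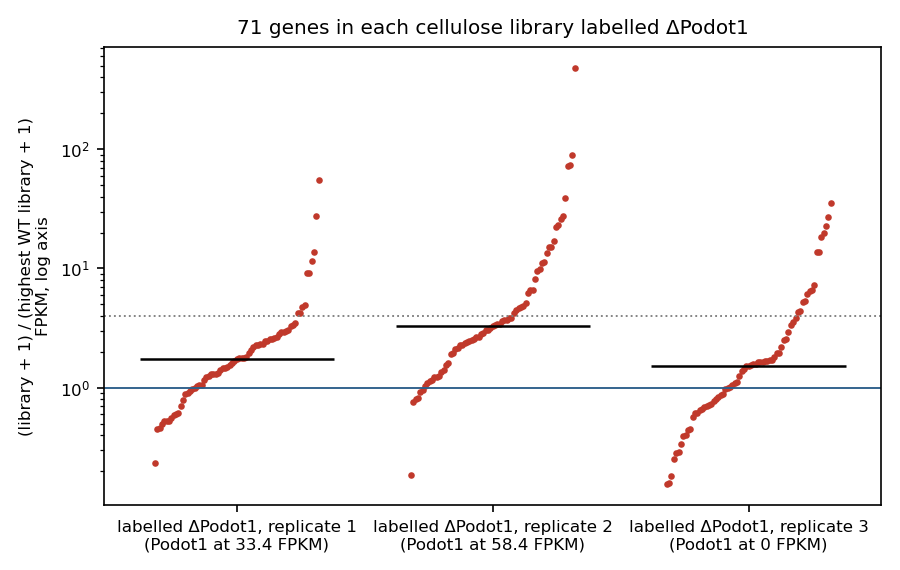
Ratio of each cellulose library labelled Δ*Podot1* to the highest WT cellulose library, each plus 1 FPKM (log axis), for the 71 genes sorted within each library; the black bar is the median, the blue line equality and the dotted line a ratio of 4. The medians are 1.73, 3.27 and 1.53 for replicates 1, 2 and 3, and the *Podot1* level of each library is printed under it.

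The patterns sorted the genes into groups. Raised in all 3 libraries were 3 genes, in replicates 1 and 3 but not 2 another 4, in replicates 1 and 2 but not 3 another 3, in replicates 2 and 3 but not 1 a single gene (PDE_05150), with 20 in replicate 2 alone, 7 in replicate 3 alone, and 33 in none. Over all genes listed, 0.16% were raised in all 3 libraries, 0.45% in replicates 1 and 3, 0.66% in 1 and 2 and 0.31% in 2 and 3. Replicate 2 alone had 5.96% of all genes raised and replicate 3 alone 1.25%, while 90% were raised in none. The 3 raised in all were PDE_06899, PDE_05929 and PDE_04218. The oligopeptide transporter PDE_06899 held 1456.89, 292.99 and 916.47 FPKM in the libraries labelled Δ*Podot1*, against 0.28, 0.24 and 25.2 FPKM in WT in cellulose, a log2 fold change of 6.67 ± 1.71 (SE, edgeR adjusted p = 0.016). Its level in replicates 1 and 3 was well above that in Δ*Podot1* in glucose. PDE_05929 held 247.29, 1602.32 and 353.88 FPKM in the libraries labelled Δ*Podot1*, against 13.44, 17.01 and 14.79 FPKM in WT, a log2 fold change of 5.48 ± 0.65 (SE, edgeR adjusted p = 0.00075). PDE_04218 held 199.47, 112.73 and 237.65 FPKM, against 16.23, 15.61 and 7.21 FPKM in WT. For each of these 3 genes every library labelled Δ*Podot1* lay above every WT library, with and without *Podot1* reads.

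The 5 genes highest in replicate 3 relative to WT were PDE_06899, PDE_05150, PDE_00836, PDE_05929 and PDE_01653, at 35-, 26.8-, 22.5-, 19.7- and 18.2-fold on the scale of FPKM plus 1. The calcium ATPase PDE_05150 held 15.44, 25.86 and 149.98 FPKM in the libraries labelled Δ*Podot1*, against 3.33, 1.58 and 4.64 FPKM in WT in cellulose. Its neighbour PDE_05151 was also highest in replicate 3, with 96.25, 45.88 and 271.32 FPKM, against 16.6, 13.04 and 36.88 FPKM in WT. Both genes were called higher, with log2 fold changes of 4.29 ± 0.79 and 2.59 ± 0.63 (SE, edgeR adjusted p = 0.0051 and 0.014). PDE_00836 held 264.89, 31.69 and 216.21 FPKM, against 4.73, 5.56 and 8.65 FPKM in WT, and PDE_01653 held 54.66, 23.71 and 329.78 FPKM, against 3.96, 3.77 and 17.2 FPKM in WT. PDE_05978, the second peptide transporter, was called higher with less change, at 21.36, 29.9 and 16.75 FPKM, against 9.89, 9.71 and 6.87 FPKM in WT. The other ion transporters described above were also called higher. PDE_01332 held 85.72, 121.12 and 144.54 FPKM, against 32.62, 11.66 and 22.46 FPKM in WT. PDE_04634 held 356.05, 105.54 and 264.7 FPKM, against 23.4, 23.46 and 101.99 FPKM in WT.

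Other genes were high mainly in replicate 2. The siderophore transporter PDE_00592 held 3.38, 120.4 and 1.51 FPKM in the libraries labelled Δ*Podot1*, against 0, 0.09 and 0.66 FPKM in WT in cellulose. PDE_01415 held 8.73, 1115.17 and 2.63 FPKM, against 0.92, 1.32 and 0.55 FPKM in WT, and PDE_06674 held 0.54, 112.44 and 0.23 FPKM, against 0.22, 0.28 and 0.58 FPKM in WT. These 3 had log2 fold changes of 7.16 ± 1.66, 8.46 ± 1.99 and 6.51 ± 1.85 (SE, edgeR adjusted p = 0.011, 0.012 and 0.024). Without replicate 2 the calls of PDE_00592 and PDE_01415 held and that of PDE_06674 was lost, and with replicate 3 alone all 3 were lost. With replicate 3 alone the value of PDE_06674 was -0.62 (edgeR adjusted p = 0.64, range over its alternatives 0.0071 to 0.96), and that of the norsolorinic acid ketoreductase PDE_04277, of a polyketide pathway, was -1.25 against 2.88 with all 3 (edgeR adjusted p = 0.084 and 0.027, range over its alternatives 0.00081 to 0.16). PDE_04277 held 86.05, 202.82 and 5.12 FPKM, against 17.23, 11.08 and 8.17 FPKM in WT. In the pair PDE_00022 and PDE_00023, replicate 2 held 36.05 and 76.85 FPKM, above the Δ*Podot1* glucose libraries, while replicate 3 held 0.37 and 0.29 FPKM, against 0.09 to 0.42 and 2.1 to 4.11 FPKM in WT. PDE_00023, PDE_01212 and PDE_01635 were called lower with replicate 3 alone, by 3.38, 2.26 and 1.16 on the log2 scale (edgeR adjusted p = 0.012, 0.031 and 0.028, with ranges over their alternatives of 0.009 to 0.89, 0.031 to 0.96 and 0.011 to 0.99). PDE_01635 was also called lower when only replicate 2 was left out.

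The neighbouring pairs of amino acid breakdown were mixed in cellulose. PDE_08907 held 135.59, 155.38 and 63.05 FPKM in the libraries labelled Δ*Podot1*, against 27.33, 38.31 and 39.87 FPKM in WT in cellulose, and was called higher with a log2 fold change of 1.66 ± 0.45 (SE, edgeR adjusted p = 0.02); this call was lost with replicate 3 alone and on leaving out any one WT cellulose library. PDE_08906 held 92.16, 169.33 and 36.91 FPKM, against 33.76, 43.41 and 53 FPKM in WT, and did not pass the test (edgeR adjusted p = 0.16). PDE_08904, PDE_08905 and PDE_08908 were called higher as well, so 4 of the 5 genes of the stretch passed. Beyond its end, PDE_08909 and PDE_08910 were also called higher, with log2 fold changes of 2.52 and 2.21 (edgeR adjusted p = 0.011 and 0.0095). PDE_08903 on the other side was not (edgeR adjusted p = 0.79). The rise in cellulose was thus not particular to the stretch. With replicate 3 alone the median log2 fold change of the 7 tyrosine breakdown genes was 0.84, against -0.07 over all genes. The fold change was then above 0 for 5 of the 7. PDE_08813 held 69.6, 239.41 and 30.21 FPKM, against 69.74, 33.48 and 29.92 FPKM in WT, and PDE_08814 held 143.83, 591.5 and 97.56 FPKM, against 146.77, 159.36 and 155.17 FPKM in WT. For this proline pair only replicate 2 lay above WT, and neither gene passed the test (edgeR adjusted p = 0.14 and 0.30). PDE_01188, PDE_01193, PDE_01195, PDE_01212 and PDE_01213 did not pass the test in cellulose either, and PDE_01195 held 22.94, 42 and 5.78 FPKM, against 3.74, 5.34 and 9.23 FPKM in WT.

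By list, 4 of 7 tyrosine breakdown genes were called higher and 1 lower in cellulose, 3 of 10 proline, glutamate and glycine genes higher and 1 lower, 8 of 15 amino acid and peptide transporters higher and none lower (1 lower at an unadjusted p under 0.05, none by DESeq2 or limma), 4 of 4 siderophore transporters higher (3 by DESeq2 and 1 by limma), and 1 of 12 secondary metabolism genes higher and 2 lower. Over all genes tested 14.3% were called higher and 10.8% lower, so the secondary metabolism genes lay near the background. With replicate 3 alone, none of the 4 siderophore transporters was called higher (2 at an unadjusted p under 0.05) and 5 of the 12 secondary metabolism genes were called lower, while 6 of the 15 amino acid and peptide transporters were called higher and 1 lower; over all genes the shares were then 11.7% higher and 11.6% lower. By state in WT, 6 of 10 silent, 16 of 27 weak and 20 of 34 expressed genes were called higher in cellulose. Raised genes in replicate 3 were 0 of 10 silent, 7 of 27 weak and 8 of 34 expressed ones, and in replicate 2 they were 5, 10 and 12.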

How the data were processed

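The authors deposited 1 table per library with an estimated count of reads per gene (an expected count, not normalized) and an FPKM value normalized by the authors for gene length and mapped reads. The paper names BGISEQ-500 RNA-seq, HISAT and Bowtie2, while the labels describe tag profiling; the hours of preculture also differ between them. For the versions, the genome build and the counting program, the entry is: not given in the sources used here. Near-identical genes may share split reads and are uncertain. Genes not listed were taken as 0.

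The 71 genes, their lists and the names to print were chosen with earlier results of these data known. Named are genes with the 5 largest glucose ratios, the 5 highest Δ*Podot1* glucose means and those in the lists. Also named are the 3 on each side of the limit, the 5 largest increases in cellulose, the 5 highest in replicate 3 and *pacC*. Neighbouring genes, ion transporters, further enzymes and edge cases were named after their values were seen. Annotation came from the study's tables of changed genes, names only (E value at most 1e-50); the authors' fold changes and probabilities there were not used.

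Estimated counts (0.713% not whole) were rounded and fitted by the quasi-likelihood method of edgeR 4.0.16 under R 4.3.3 (glmQLFit and glmQLFTest after filterByExpr and TMM scaling), with 1 mean per group over all 12 libraries; a call needs a Benjamini-Hochberg adjusted p under 0.05 and at least 2-fold. Standard errors were derived from the fit, as the size of the log2 fold change over the root of its F statistic. Of 9909 genes, 9088 were tested. The procedure was checked on simulated counts in which 200 genes changed 4-fold; it recovered 61.5% in the glucose comparison (9003 genes) and 54.5% in the cellulose comparison (9004 genes). Other settings tried were limma 3.58.1 on log2(FPKM + pseudocount), DESeq2 1.42.0, other filters, scalings, pseudocounts and limits, a replicate block and leaving out libraries. List counts without the doubted cellulose libraries were an addition chosen after seeing the data.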

Additional observations from a re-analysis of the deposited data

How the results depend on the processing

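The number of genes taken by the rule was 34 with a pseudocount of 10 FPKM (30 of them among the 71), 274 with a ratio of 2 and 19 with a ratio of 8. Leaving out 1 library gave 71 to 159 genes, the highest without Δ*Podot1* glucose replicate 3 and the next, 125, without WT glucose replicate 1. The other settings, among them no limit on the carbon response (91) and TPM (85), stayed within 1.5 times of 71. Genes called higher in cellulose numbered 17 with limma and a pseudocount of 10, 8 with only the 6 cellulose libraries (65 genes tested) and 27 without replicates 1 and 2 labelled Δ*Podot1*, against 42; leaving out 1 library gave 19 to 45. Genes called lower numbered 3 without those replicates, and 0 to 1 on leaving out 1 library. Shares called over all genes were counted only for the main fit, the fit without replicate 2 and the fit with replicate 3 alone. Genes raised in a library labelled Δ*Podot1* numbered 25 in replicate 1 and 51 in replicate 2 at a ratio of 2, and 17 in replicate 2 with a pseudocount of 10 FPKM. A limit of 0.5 FPKM left 4 silent genes. PDE_04277 had a log2 fold change of -1.2534 and PDE_06674 of -0.6202 with replicate 3 alone. The cause was not tested in any of these. Of 18 named genes called higher, PDE_00836, PDE_04218 and PDE_05929 kept the call under all 22 alternatives, while PDE_09270 kept it under 11 of 22, PDE_09593 under 11 of 21, PDE_04277 under 12 of 22, PDE_06674 under 11 of 20 and PDE_00022 under 12 of 20. The replicate numbers did not pair the libraries: same-numbered deviations from the group means correlated at -0.12 to 0.11, not every library fitted its own number best, and with the replicate block 33 genes were called higher, 31 of them among the 42, and 0 lower. Depth limits the silent genes, whose 3 WT glucose libraries held 4 to 26 counts together.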

Other observations

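The limit on the carbon response left out 20 genes that met the level and ratio limits in glucose, 17 of which WT expressed more than 8-fold higher in cellulose than in glucose and 3 more than 8-fold lower. PDE_01118 and PDE_01119 are neighbours among them. PDE_01118 held 1124.13, 943.21 and 239.88 FPKM in Δ*Podot1* in glucose, against 33.72, 10.25 and 7.79 FPKM in WT, and WT in cellulose held 231.33, 259.2 and 402.49 FPKM. PDE_01119, annotated as a pseudouridine 5'-phosphatase, held 99.54, 194.06 and 89.94 FPKM in Δ*Podot1* in glucose, against 1.98, 0.8 and 0.39 FPKM in WT; in cellulose it held 614.47, 77.74 and 615.34 FPKM in the libraries labelled Δ*Podot1*, against 59.51, 29.44 and 50.78 FPKM in WT. PDE_00594 went opposite ways in the media. It held 7.58, 7.09 and 6.19 FPKM in Δ*Podot1* in glucose, against 0.52, 0 and 0.14 FPKM in WT, and 10.76, 3.39 and 11.98 FPKM in the Δ*Podot1*-labelled cellulose libraries, against 23.99, 31.87 and 24.52 FPKM in WT. The difference between the media was not tested. Of the 3 genes lower in cellulose in WT, PDE_02469 was the most abundant, at 1090.2, 1186.1 and 1279.05 FPKM in Δ*Podot1* in glucose, against 120.91, 175.41 and 163.48 FPKM in WT, and at 43.29, 815.56 and 157.03 FPKM in the Δ*Podot1*-labelled cellulose libraries, against 16.94, 8.39 and 3.34 FPKM in WT.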
